A study of Homo sapiens with 2 samples.

Results

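The genes described here are the snoRNA host genes of the long non-coding RNA (lncRNA) class: every GENCODE gene whose symbol is SNHG followed by digits, together with GAS5, ZFAS1 and EPB41L4A-AS1. The annotation held 31 such genes among 38690 protein-coding and lncRNA genes, and all 31 were annotated as lncRNA. They were read out in a ChIP-seq experiment in A673, an established Ewing sarcoma cell line that carries the EWSR1-FLI1 fusion. The series has 2 samples of these cells, labelled wild type and given no treatment by the labels: 1 library of chromatin precipitated with an antibody to MYBL2, a MYB family transcription factor of dividing cells, and 1 input library of sheared chromatin without precipitation. The labels name the antibody as anti-MYBL2, and the methods of the study name its target as phosphorylated, activated MYBL2. Each group is 1 library of 1 cell line, so none of the values has an error from replicates and no test between groups was made.

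Small nucleolar RNAs (snoRNAs) guide the chemical modification of other RNAs, above all ribosomal RNA: box C/D snoRNAs direct ribose methylation and box H/ACA snoRNAs direct pseudouridylation. In human cells most of them have no promoter of their own and are cut out of the introns of a host transcript, so the promoter of the host sets when they are made. Some hosts encode ribosomal or other proteins, whereas the SNHG hosts make spliced RNAs that code for no conserved protein, and several of these RNAs are short-lived in the cytoplasm. Several hosts, like ribosomal protein genes, start transcription in a run of pyrimidines, the 5′ terminal oligopyrimidine (TOP) tract.

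The deposited list held 66954 peaks, with a median fold enrichment of 3.79 (range 1.54 to 64.9) and a median pileup of 20 fragments at the summit. Fold enrichment is the peak caller's linear ratio of the ChIP pileup to the background value that the caller used at the summit. Promoters were taken to reach 1000 bp upstream and downstream of each annotated transcription start site (TSS), and the best promoter peak was the one with the largest fold enrichment there. Intervals given after a fold enrichment are exact 95% Poisson intervals of its pileup with the background held fixed. They cover counting error only, since fragments without molecular identifiers are not independent molecules.

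MYBL2 peaks lay at the promoter of 28 of the 31 snoRNA host genes, and most of these peaks were strong, long and placed at the start of the gene. By comparison, 22.8% of the other lncRNA genes had a promoter peak, and 37.2% of the other lncRNA genes with 5 or more TSSs. One more host, SNHG14, had peaks in the gene body alone, which made 29 (other lncRNA genes, 29.6%). A fold enrichment of at least 5 was found at 26 hosts (other lncRNA genes, 16%). It reached 10 at 23 hosts (other lncRNA genes, 6.94%), and 20 at 13 hosts (other lncRNA genes, 1.09%). The strongest were SNHG1, ZFAS1, SNHG9, SNHG16, SNHG5 and SNHG32, and the median of the 28 was 17.8. SNHG14, SNHG18 and SNHG27 had no promoter peak.

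The starts of all 13 hosts with a fold enrichment of at least 20 are shown first, in the order of fold enrichment, because the choice of genes did not use the letters around them. Each line spans 40 bases before to 20 bases after the annotated start nearest the summit, on the strand of the gene, in GRCh37 coordinates. Capitals within 10 bases of the start mark a TOP tract, searched on the gene strand as C followed by at least 4 letters that are C or T. Capitals farther upstream mark TATAA or TTTAA between 40 and 20 bases before the start, called TATA-like letters here. SNHG18 and SNHG27, which had no peak, follow for comparison at their canonical starts.
SNHG1 (chr11:62623299-62623359, minus strand): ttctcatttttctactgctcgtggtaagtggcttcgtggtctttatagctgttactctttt
ZFAS1 (chr20:47895139-47895199, plus strand): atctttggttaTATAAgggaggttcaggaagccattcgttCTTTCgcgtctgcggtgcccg
SNHG9 (chr16:2014856-2014916, plus strand): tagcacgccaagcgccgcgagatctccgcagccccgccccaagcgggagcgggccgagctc
SNHG16 (chr17:74553769-74553829, plus strand): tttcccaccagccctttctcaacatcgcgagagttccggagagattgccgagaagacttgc
SNHG5 (chr6:86388429-86388489, minus strand): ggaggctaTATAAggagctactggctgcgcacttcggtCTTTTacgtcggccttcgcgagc
SNHG32 (chr6:31802669-31802729, plus strand): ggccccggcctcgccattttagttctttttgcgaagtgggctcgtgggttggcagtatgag
GAS5 (chr1:173837101-173837161, minus strand): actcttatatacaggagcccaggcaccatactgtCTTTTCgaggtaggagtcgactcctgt
SNHG12 (chr1:28908345-28908405, minus strand): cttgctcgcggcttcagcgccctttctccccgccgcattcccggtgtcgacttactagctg
SNHG8 (chr4:119199873-119199933, plus strand): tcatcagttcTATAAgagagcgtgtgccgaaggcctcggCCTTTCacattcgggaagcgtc
SNHG7 (chr9:139622616-139622676, minus strand): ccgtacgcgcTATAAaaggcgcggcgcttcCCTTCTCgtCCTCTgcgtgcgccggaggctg
SNHG29 (chr17:16342312-16342372, plus strand): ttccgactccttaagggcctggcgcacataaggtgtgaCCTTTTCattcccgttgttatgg
SNHG25 (chr17:62223290-62223350, plus strand): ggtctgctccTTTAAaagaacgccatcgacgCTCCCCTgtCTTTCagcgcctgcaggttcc
SNHG3 (chr1:28832515-28832575, plus strand): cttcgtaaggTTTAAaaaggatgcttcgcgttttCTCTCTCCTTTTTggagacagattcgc
SNHG18 (chr5:9546265-9546325, plus strand): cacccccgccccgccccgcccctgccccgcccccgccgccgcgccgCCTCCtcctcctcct
SNHG27 (chr4:132648702-132648762, plus strand): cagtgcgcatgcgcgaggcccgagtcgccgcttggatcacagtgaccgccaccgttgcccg
By this search a TOP tract lies within 10 bases of the start in 8 of the 13 enriched hosts. These are ZFAS1, SNHG5, GAS5, SNHG8, SNHG7, SNHG29, SNHG25 and SNHG3. The same search was met by 26.5% of all bound genes. SNHG1, SNHG9, SNHG16, SNHG32 and SNHG12, among them 3 of the 4 strongest, have no tract within 10 bases of this start and no TATA-like letters. Pyrimidine runs farther from the start were not counted, and SNHG1, SNHG16 and SNHG12 have a tract at their canonical start. Tract lengths count only the bases within 10 bases of the start. SNHG18, without a peak, also holds a tract of 5 such bases, and its pyrimidines run on to the end of the printed line. SNHG3 has the longest counted tract, 13 bases, and SNHG7 and SNHG25 hold 2 separate tracts each. The first pyrimidine run of SNHG7 begins before the counted bases. TATA-like letters precede the tract in ZFAS1, SNHG5, SNHG8, SNHG7, SNHG25 and SNHG3, and are missing from the GAS5 and SNHG29 windows. The GAS5 window does hold TATATA upstream of the start, which the search did not include.

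Among the hosts whose span holds box C/D snoRNAs only, 11 of 13 had a promoter peak, with a median fold enrichment of 23.2 and a range from 4.77 to 35.1. SNHG1, the gene first known as the host of SNORD22, spans 8 box C/D snoRNAs in its 3976 bp. Its best peak (chr11:62617259-62624327) had a fold enrichment of 35.1 (30.4 to 40.4) from a pileup of 198 fragments. ZFAS1, the antisense neighbour of ZNFX1 and host of SNORD12, SNORD12B and SNORD12C, had 35.1 (30.3 to 40.5) at chr20:47894439-47908427. SNHG16, host of SNORD1A, SNORD1B and SNORD1C, had 33.5 (29.3 to 38.1) at chr17:74553135-74554830. These 3 peaks cannot be ordered, since their intervals overlap almost completely.

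SNHG5, host of the SNORD50 pair, had a fold enrichment of 32.3 (27.5 to 37.8) at chr6:86386882-86389638. SNHG32, host of SNORD48 and SNORD52 on the other side of the centromere of chromosome 6, had 31.5 (26.5 to 37.1) at chr6:31802059-31803462. SNHG29, which holds SNORD49A, SNORD49B and SNORD65, and SNHG25, a gene of only 540 bp around SNORD104, are both on chromosome 17. Their fold enrichments were 23.2 (19.7 to 27.2) and 22.5 (19.4 to 25.9). The box C/D hosts below 20 were SNHG6 with SNORD87, at 14.2 (10.9 to 18.1), SNHG26 with SNORD93, at 13.9 (10.8 to 17.6), SNHG19 with SNORD60, at 13.6 (11.7 to 15.8), and SNHG30 with SNORD7, at 4.77 (3.17 to 6.90). The interval of SNHG30 thus lies below those of all the other bound box C/D hosts.

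A pair of hosts span snoRNAs of both boxes, and both were strongly enriched. GAS5, whose RNA accumulates in growth-arrested cells, spans 11 snoRNAs, 10 of them box C/D. Its peak (chr1:173829596-173837768) reached 27.4 (23.2 to 32.0) from 154 fragments. SNHG12, with SNORD99 and 3 box H/ACA snoRNAs, reached 26.1 (22.2 to 30.6) at chr1:28903778-28909071.

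All 10 hosts whose span holds box H/ACA snoRNAs only had a promoter peak, with a median fold enrichment of 17.8 and a range from 6.74 to 34.6. SNHG9, host of SNORA78 and divergent from the ribosomal protein gene RPS2, led them with 34.6 (29.4 to 40.5) at chr16:2012608-2015353. SNHG8, with SNORA24, had 24.1 (20.0 to 29.0), and SNHG7, with SNORA17A and SNORA17B, had 23.8 (19.6 to 28.8). SNHG3, host of the SNORA73 pair, had the largest pileup of any host, 248 fragments. Its background was also high, at 10.3 fragments, and its fold enrichment was 22.1 (19.5 to 25.0).

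SNHG17 and SNHG11 lie 10933 bp apart on chromosome 20, point away from each other and both span members of the SNORA71 family. Their fold enrichments were 17.8 (14.5 to 21.7) and 17.4 (13.9 to 21.6), and did not differ beyond counting error. SNHG4, which holds SNORA74A and begins beside MATR3, had 17.7 (14.1 to 22.0). SNHG15, with SNORA9, had 12.7 (10.2 to 15.7), and EPB41L4A-AS1, with SNORA13, had 11.1 (8.69 to 13.9). SNHG31 was lowest, at 6.74 (4.59 to 9.58).

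The 6 remaining hosts have no snoRNA name inside their span in the RefSeq table, although GENCODE places small Cajal body RNAs in SNHG10 (SCARNA13) and SNHG22 (SCARNA17 and SCARNA18), SNORD64 in SNHG28 and SNORA70 in SNHG27. A promoter peak was found at 5 of them, none with a fold enrichment of 20 or more. SNHG10 had 13.5 (10.3 to 17.3), SNHG21 had 12.1 (9.14 to 15.8) and SNHG22 had 8.31 (6.02 to 11.2). SNHG20 had 7.19 (4.96 to 10.1) and SNHG28 had 3.52 (2.21 to 5.34), the weakest best peak of any host. The median of the 5 was 8.31, against 23.2 and 17.8 in the single-box classes, and this difference, which rests on the RefSeq names, was not tested.

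**Figure D1:**
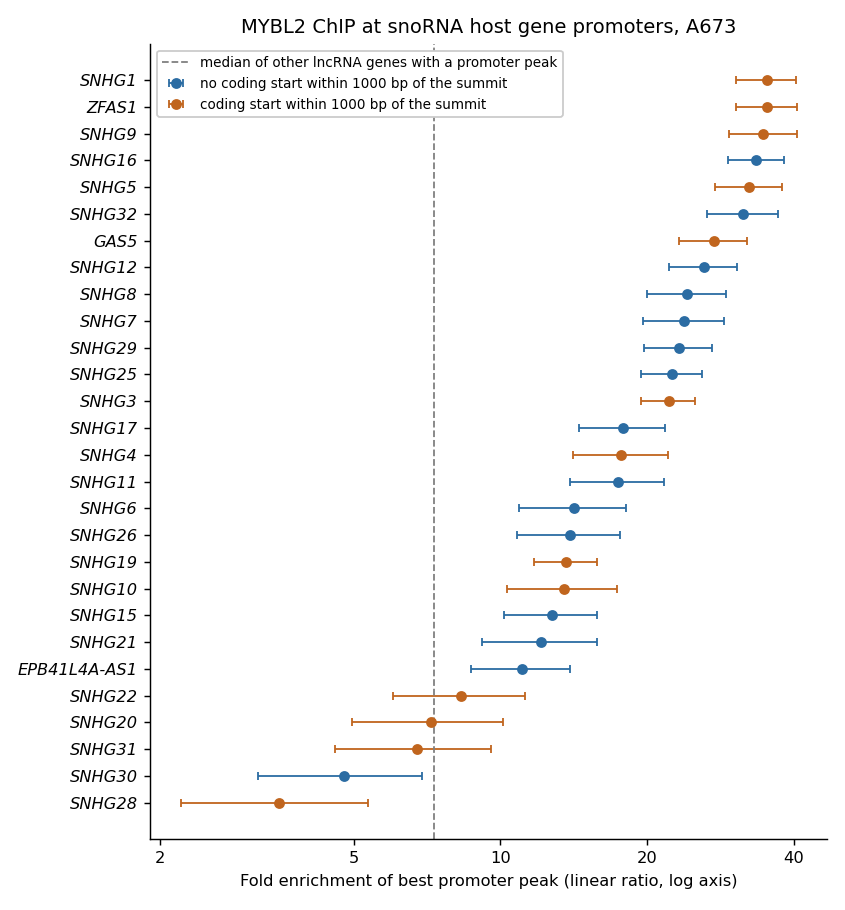
Fold enrichment of the best promoter peak (x axis, linear ratio on a log scale) for the 28 snoRNA host genes with a promoter peak (y axis). Points are the caller's values, bars are exact 95% Poisson intervals for counting error, colours show whether a protein-coding start lies within 1000 bp of the summit, and the dashed line is the median of other lncRNA genes (7.30); 23 hosts lie at 10 or above.

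Ordered by fold enrichment, the 28 hosts form a gradual series, and in 27 of 27 pairs of neighbours the intervals overlapped. The order is therefore reliable only between hosts far apart in it, such as SNHG1 and SNHG17. Pileups ran from 20 fragments at SNHG28 to 248 at SNHG3, with a median of 101. The background took the same lowest value, 3.45 fragments, at 7 hosts, SNHG9 and SNHG32 among them, and was highest, 12.1, at SNHG19. SNHG19 had 178 fragments, more than SNHG5, so its place in the lower part of the order goes with its high background. The part of the background in the order was not tested.

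The hosts were next set beside other gene groups, as a description of this 1 library. The median fold enrichment over bound genes was 17.8 for the hosts (quartiles 12.6 to 26.4), 7.30 for other lncRNA genes and 8.67 for protein-coding genes. The 79 cytoplasmic ribosomal protein genes, many of which carry snoRNAs themselves, had a promoter peak in 78 cases and a median of 20.4. Non-ribosomal protein-coding genes with a snoRNA inside their span were bound at 170 of 201 and had a median of 10.8. The 8 other lncRNA genes with a snoRNA inside their span had a lower median, 9.81 over the 6 with a promoter peak. The median of the 28 hosts described here thus lay near that of the ribosomal protein genes and above those of both other sets of hosts. The hosts also have more annotated starts than other lncRNA genes (median 9 against 1) and more CpG around the canonical start (median observed/expected ratio 0.764 against 0.282). Other lncRNA genes with 5 or more TSSs, whose median CpG ratio was 0.434, had a median fold enrichment of 7.73, and the part of CpG content in the difference was not tested.

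**Figure D2:**
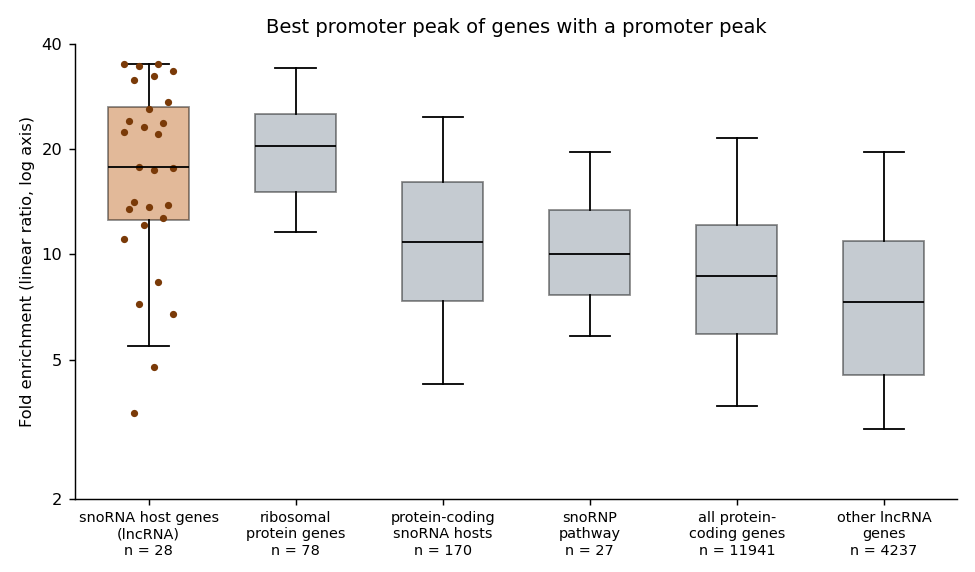
Fold enrichment of the best promoter peak (y axis, linear ratio on a log scale) by gene group (x axis, n is the number of genes with a promoter peak). Boxes are quartiles with the median, whiskers the 5th and 95th percentiles and dots the 28 snoRNA host genes; the hosts (median 17.8) sit between ribosomal protein genes (20.4) and protein-coding snoRNA hosts (10.8).

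Of the 670 strongest peaks of the list, the top 1%, 13 were the best promoter peak of a host, that is 13 of the 28 best peaks. They belong to the same 13 hosts that had a fold enrichment of at least 20. That value was reached by 971 of all 16206 bound genes and by 40 of the 78 bound ribosomal protein genes. Hosts took 5 of the first 50 and 8 of the first 100 places among 4265 lncRNA genes ranked by their best promoter peak. An lncRNA promoter can share its peak with a protein-coding neighbour, so the ranking was repeated over the 1552 lncRNA genes whose summit had no protein-coding TSS within 1000 bp. In that ranking 15 hosts were left, and 9 of them were among the first 50.

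The other 13 hosts shared their summit with a protein-coding start within 1000 bp, and their peaks cannot be assigned to either gene. The partner was on the opposite strand in 8 cases: ZBTB37 with GAS5, the amino acid transporter subunit gene SLC3A2 with SNHG1, GLRX5 with SNHG10, TRAF7 with SNHG19, ACAA2 with SNHG22, BARD1 with SNHG31, RPS2 with SNHG9 and ZNFX1 with ZFAS1. It was on the same strand in 5: SEC14L1 with SNHG20, RCC1 with SNHG3, MATR3 with SNHG4, ENSG00000271793 with SNHG5 and ENSG00000256029 with SNHG28. The summit was nearer to the partner than to the host in 4 of the 13, at SNHG3, SNHG9, SNHG22 and SNHG31. The SNHG9 summit lay 5 bp inside RPS2 and 97 bp before SNHG9, and the SNHG31 summit lay 11 bp inside BARD1 and 595 bp before SNHG31. A second, weaker peak with a fold enrichment of 4.23 had its summit 36 bp past the canonical start of SNHG31. The median fold enrichment was 17.7 for the 13 hosts with a coding partner and 17.8 for the 15 without, so strong peaks were not limited to shared promoters. SNHG16 and SNHG21 had an lncRNA start on the opposite strand near the summit.

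Summits lay close to the starts. The median distance from the summit of the best promoter peak to the nearest TSS of the host was 34.5 bp, and 25 of 28 summits were within 100 bp. Within 100 bp lay 27.1% of the summits of other lncRNA genes, 46.8% of those of other lncRNA genes with 5 or more TSSs, 58.6% of those of protein-coding genes and 87.2% of those of ribosomal protein genes. The 3 hosts outside 100 bp were SNHG21 (181 bp upstream), SNHG22 (125 bp upstream) and SNHG31. Hosts with many annotated starts have more chances of a near one: measured from the outermost TSS only, the median distance was 256 bp. In SNHG20 the only promoter peak was at an internal start, 1911 bp past the canonical start and beside SEC14L1, so with the canonical or the outermost TSS alone SNHG20 had none.

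The letters at the summits are shown for the hosts with an E-box, the CACGTG element read by MYC and related factors, and for SNHG1 and SNHG16, which hold the other marked elements. Each line is the summit base with 50 bases either side, on the strand of the gene in GRCh37. Capitals mark the MYB core (AACNG, read as CNGTT on the other strand) and the E-box. They also mark the cell cycle homology region (TTTGAA) and the letters TATAAA (read as TTTATA on the other strand). In SNHG1 the TATAAA match is on the opposite strand and lies after the annotated start nearest the summit.
SNHG9 (chr16:2014749-2014849, plus strand): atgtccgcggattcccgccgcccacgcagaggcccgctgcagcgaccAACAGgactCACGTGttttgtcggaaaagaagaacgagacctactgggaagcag
SNHG7 (chr9:139622670-139622770, minus strand): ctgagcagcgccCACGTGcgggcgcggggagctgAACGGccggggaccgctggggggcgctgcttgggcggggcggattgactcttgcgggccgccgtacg
SNHG4 (chr5:138609757-138609857, plus strand): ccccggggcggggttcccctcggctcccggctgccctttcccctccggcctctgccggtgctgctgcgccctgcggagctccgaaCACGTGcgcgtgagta
SNHG1 (chr11:62623270-62623370, minus strand): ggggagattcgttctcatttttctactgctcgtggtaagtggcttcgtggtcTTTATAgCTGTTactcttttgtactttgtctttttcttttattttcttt
SNHG16 (chr17:74553736-74553836, plus strand): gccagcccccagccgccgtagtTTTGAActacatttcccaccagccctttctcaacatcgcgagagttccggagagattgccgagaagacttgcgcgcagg
Over the 28 best peaks, AACNG on either strand was present in 14 windows (50%), against 39.5% of the 11801 best promoter peaks of all genes. CACGTG was present in 3 windows, those of SNHG9, SNHG7 and SNHG4 (10.7%, against 3.04%). TTTGAA or TTCGAA was present in 1 (all promoter peaks, 4.27%), CCAAT in 2 (9.98%), CCGGAAGT in 1 (3.14%) and TATAAA in 1 (1.64%). None of the E2F letters TTTCCCGC, TTTCGCGC, TTTGCCGC or TTTGGCGC was present (1.64%). All motifs were sought on both strands, the marked matches do not overlap each other, and with windows of 100 bases either side the counts were 6 for CACGTG, 4 for CCAAT and 2 for E2F. With 28 windows a single match moves a share by 3.57 percentage points, so these counts do not set the hosts apart. A match is a description of letters, and a window without one says nothing about the factor.

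The letters at the starts were counted in the same way over the hosts. At the start nearest the summit, 14 of the 28 hosts had a TOP tract (50%), against 26.5% of all bound genes and 51.3% of ribosomal protein genes. At the canonical start, where ribosomal protein genes reached 88.6%, it was 12 of 31 hosts (38.7%) against 28.8% of all genes. TATA-like letters preceded the nearest start in 7 hosts (25%): ZFAS1, SNHG5, SNHG8, SNHG7, SNHG25, SNHG3 and SNHG19. The share was 3.1% in all bound genes, 2.83% in other lncRNA genes and 8.97% in ribosomal protein genes. This search was written after the sequences above had been read, so the count describes the hosts it was drawn from and is not evidence of a difference.

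The peaks of the hosts were long. Their median width was 2458 bp, against 808 bp for other lncRNA genes, 865 bp for protein-coding genes and 2058 bp for ribosomal protein genes, and 11 of 28 (39.3%) were 3000 bp or longer, against 4.65%, 3.61% and 30.8%. The peaks also leaned downstream, with a median reach of 1748 bp downstream of the canonical start and 531.5 bp upstream. The downstream reach passed the gene end at SNHG1, SNHG3, SNHG6, SNHG12, SNHG19 and SNHG25. It was 7506 bp at SNHG19 (gene span 614 bp) and 3616 bp at SNHG25 (gene span 540 bp). The downstream side was the longer one in 23 of 28 hosts (82.1%), in 48.5% of other lncRNA genes, in 49.9% of protein-coding genes and in 84.6% of ribosomal protein genes. The hosts' peaks were also stronger, and the part of fold enrichment in this width was not tested.

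The longest peak was that of SNHG3, 14342 bp, which covers all of SNHG3 and 13513 bp of RCC1, the gene for the exchange factor of Ran that lies on the same strand. The ZFAS1 peak followed with 13989 bp, all but 740 bp of it downstream of the start. The GAS5 peak (8173 bp), the SNHG19 peak (8038 bp) and the SNHG1 peak (7069 bp) ran through most or all of these genes. The SNHG19 peak also covered 6267 bp of RAB26 on the opposite strand. Other long peaks also covered parts of coding genes on the opposite strand, among them PRSS12 (3694 bp, SNHG8 peak) and LRRC75A (3350 bp, SNHG29 peak). TEX2 (2327 bp, SNHG25 peak) and MCMDC2 (1539 bp, SNHG6 peak) were further cases. SNHG29 (6764 bp), SNHG8 (5330 bp), SNHG12 (5294 bp), SNHG6 (5264 bp), SNHG25 (4012 bp) and SNHG26 (3550 bp) complete the list of peaks over 3000 bp. In the map of peaks along the genes these bars run to the right from near the canonical start, and that of SNHG12 begins past it. At the other end, the SNHG28 peak measured 447 bp and the SNHG30 peak 604 bp.

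Beyond the best peaks, 71 further peaks lay at 20 of the hosts, which brings the distinct peaks at these genes to 99 (0.148% of the list). They were weaker, with a median fold enrichment of 4.16 (range 2.36 to 11.2) and a median width of 384 bp. The 3 with a fold enrichment of 10 or more were in SNHG5 (11.2, summit 4686 bp past the start), SNHG32 (10.8, at 5561 bp) and SNHG7 (10.2, at 5101 bp). SNHG17 carried 11 further peaks and SNHG29 carried 10, strung along the gene.

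**Figure D3:**
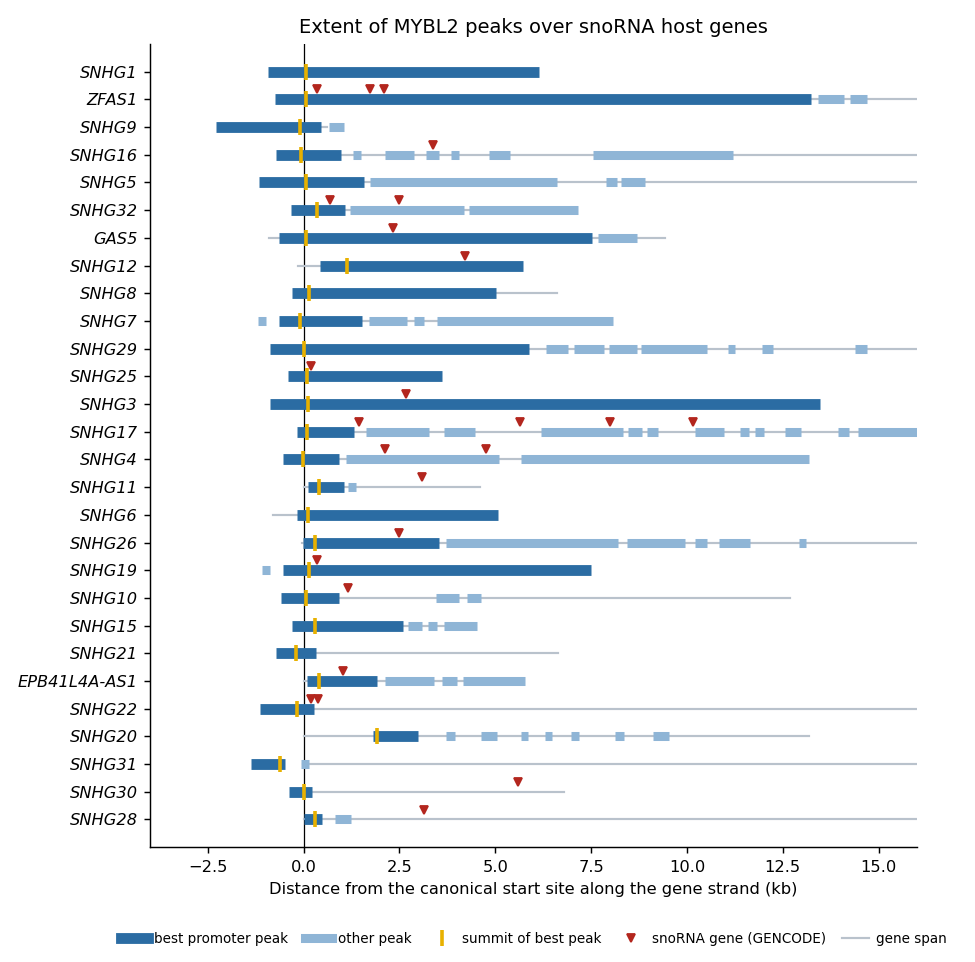
Peaks of the MYBL2 list over the 28 snoRNA host genes with a promoter peak, drawn to scale by distance in kb from the canonical start along the gene strand (x axis, cut at 16 kb), with genes in the order of fold enrichment (y axis). Dark bars are best promoter peaks, light bars other peaks, yellow ticks summits and red triangles the snoRNA genes that GENCODE places; the best peak reaches farther downstream than upstream in 23 of 28 genes.

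With all peaks counted, a median of 71.9% of the span of the 28 hosts lay under a peak, and 17 of them were covered over more than 50%. SNHG1, SNHG3, SNHG19 and SNHG25 were covered over 100%, SNHG32 over 95.1% and SNHG4 over 93.1%. SNHG21 (5.12%), SNHG30 (4.22%), SNHG28 (4.2%), SNHG22 (0.91%) and SNHG31 (0.1%) formed the low end, with peaks near the start only. Since many hosts are short, bound genes of 3000 to 30000 bp were compared. In that range the median was 76% for 21 hosts, 73.8% for 61 ribosomal protein genes, 5.73% for 1532 other lncRNA genes and 7% for 5070 protein-coding genes. Coverage of more than 50% was found in 14 of the 21 hosts and in 5.16% of the other lncRNA genes. The median host span, 6819 bp, was shorter than that of the lncRNA genes in this range, 9095 bp.

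**Figure D4:**
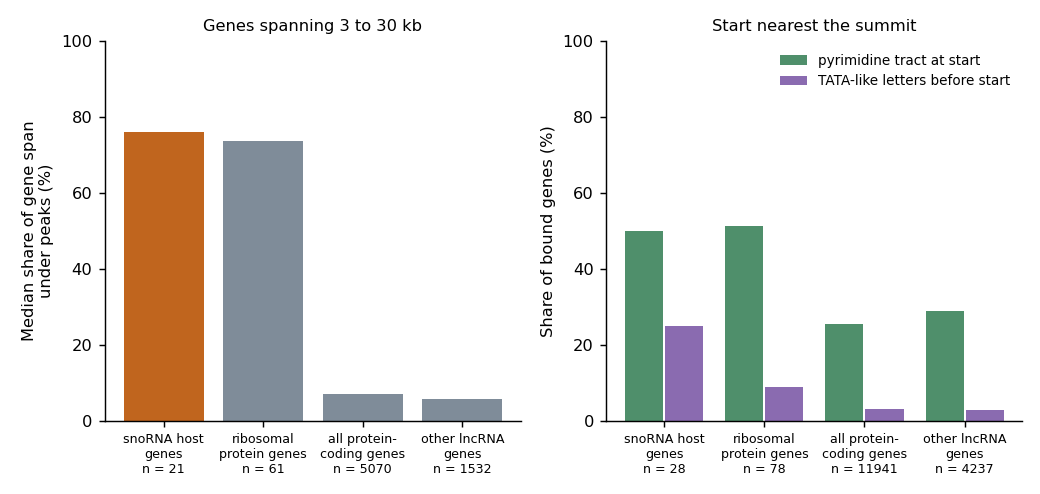
Left, median share of the gene span under MYBL2 peaks (y axis, percent) in bound genes spanning 3 to 30 kb, by gene group (x axis, n genes); right, share of bound genes (y axis, percent) with a pyrimidine tract at the start nearest the summit or TATA-like letters before it. The hosts and ribosomal protein genes reach 76% and 73.8% of the span, the other groups 7% or less.

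The snoRNA genes inside the hosts were located where the lifted annotation places them. The RefSeq table names 142 snoRNAs inside 25 hosts, whereas GENCODE gives GRCh37 positions for 100, of which 72 are in SNHG14 and 28 in 20 other hosts. Of these 28, 18 lay under a MYBL2 peak, 12 of them under the best promoter peak. Peaks covered a median of 71.9% of the span of the bound hosts, so this count does not set the snoRNAs apart from the rest of the gene. Few were near a summit, and 9 lay within 500 bp of one. The closest are shown, with that nearest the strongest summit of the set, to let the letters of the snoRNA be read. Capitals mark the first C box found (TGATGA with the purine before it) and the last D box (CTGA), on the gene strand in GRCh37.
SNORD1B (chr17:74557191-74557274, plus strand): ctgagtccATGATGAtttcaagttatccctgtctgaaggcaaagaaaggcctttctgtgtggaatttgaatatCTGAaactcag
SNORD104 (chr17:62223443-62223512, plus strand): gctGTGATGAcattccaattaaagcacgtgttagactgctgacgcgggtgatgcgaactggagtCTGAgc
SNORD12C (chr20:47895477-47895565, plus strand): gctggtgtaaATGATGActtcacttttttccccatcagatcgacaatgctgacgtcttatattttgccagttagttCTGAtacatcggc
SNORD1B, inside SNHG16, held the summit of a peak with a fold enrichment of 6.43, 4 bp from the nearer end of the snoRNA gene. This peak was separate from the best SNHG16 peak. That weaker peak also lay within 1000 bp of another annotated SNHG16 start, so it cannot be assigned to the snoRNA. SNORD104 lay 69 bp from the summit of the SNHG25 promoter peak. SNORD12C lay 234 bp from the ZFAS1 summit, and SNORD12B and SNORD12 lay farther along the same peak, 1613 and 1977 bp from it. SNORD78 in GAS5 and SNORA73B in SNHG3 were also under the promoter peak of their host, 2248 and 2465 bp from the summit. SNORA71A, in SNHG17, was 91 bp from the summit of a weaker peak with a fold enrichment of 3.79. The SNORA71 genes are close copies of each other, so the placement of reads among them is uncertain.

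The 3 hosts without a promoter peak are unlike each other. SNHG14, the very long transcript of the Prader-Willi region that carries the SNORD115 and SNORD116 arrays, spans 441754 bp and had 5 peaks in its body. Their fold enrichments were 2.73 to 4.34, 0 of its 72 placed snoRNAs lay under a peak, and the nearest peak was 3365 bp from any of its annotated starts. The summit nearest to SNORD108, 31569 bp from it, lay upstream of the annotated span and was not counted for SNHG14. Whether the transcript begins there was not tested. The array copies are nearly identical and alignments of low mapping quality had been dropped, so the lack of peaks there is uncertain. SNHG14 also had the lowest CpG ratio at the canonical start, 0.247. This start, at position 25438460, is internal to a span that begins at 25223730, so the ratio does not describe the beginning of the gene. SNHG18 (host of SNORD123) and SNHG27 had CpG ratios of 0.764 and 0.767, close to the median of the hosts, but the nearest peak was 702667 bp and 230125 bp away.

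The proteins that work with snoRNAs were taken from a list of 28 genes: the core proteins of the particles, their assembly and trafficking factors, and the nonsense-mediated decay factors that clear spliced host RNAs. A promoter peak was found at 27 of 28 (protein-coding genes, 59.4%), with a median fold enrichment of 9.99, close to the 8.67 of all bound protein-coding genes and below the 17.8 of the hosts. The 4 box C/D core genes had a median of 14.7 and the 4 box H/ACA core genes 8.32. The highest were NOP58, a box C/D core protein, with 21.8 (17.7 to 26.6), ZNHIT6, an assembly factor, with 19.9 (16.2 to 24.1), and NVL, a ribosome assembly ATPase, with 19.3 (16.3 to 22.6). NOP58 is itself a host of snoRNAs of the SNORD11 and SNORD70 groups. The lowest were UPF2 with 6.34 (4.32 to 9.01), SHQ1 with 5.62 (3.68 to 8.25) and COIL, the gene for coilin of Cajal bodies, with 4.85 (3.09 to 7.30). SMG1, the kinase of nonsense-mediated decay, had no promoter peak.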

How the data were processed

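ChIP and input libraries of A673 cells were sequenced as single-end reads by the authors, who aligned them to hg19, kept alignments of mapping quality 20 or more and called narrow peaks against the input at q 0.05. The submitters' processing notes name Bowtie2 2.1.10 and MACS2 2.0.10, and the content of an additional cleaning step is not given in the sources used here. The deposited file gives for each peak other fields (start, end and summit position in bp), a score (10 times the −log10 q), a fold enrichment (a linear ratio), and the −log10 p and −log10 q of the caller. The authors' score was not used further, and no file of the input library was used here.

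Pileup and background at each summit were recovered from the deposited fold enrichment, (pileup + 1) / (background + 1), and the Poisson p, to within 3.49e-05 of the −log10 p at every peak, and the recovery was tested on simulated data. Genes and starts came from GENCODE 44 lifted to GRCh37, and overlaps of at least 1 bp were counted with Python 3.11.15, pandas 2.3.3 and pysam 0.24.0. Names of snoRNAs inside gene spans came from the RefSeq table of another build (GRCh38.p14), matched by position within that table without strand. Where the plan had taken other host genes from the annotation on one strand, this table was used instead, since the lifted annotation places few snoRNAs. All 31 genes are named, with their coding partners and, of the 28 snoRNA particle genes, the 3 highest, the 3 lowest and that without a peak. The genes and lists were chosen with earlier results of these data known. The share of the span under peaks and the TATA-like search were added after the data were seen. With 1 library per group no test was made.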

Additional observations from a re-analysis of the deposited data

How the results depend on the processing

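Requiring a −log10 q, or else a fold enrichment, of 5 or more, narrowing or extending the promoter window, using the outermost TSS, requiring the summit in the window and ranking by −log10 q left 26 to 28 hosts with a promoter peak and a median fold enrichment of 17.8 to 20.0. Of 71 recomputed values, 64 stayed within a set limit and 7 moved. The limit was 1.5 times the value given. For the median fold enrichment it was instead the counting interval of the host nearest the median, which is not an error of the median. With a fold enrichment of 5 or more required, the peaks at the hosts fell from 99 to 48, by construction. With the outermost TSS the median summit distance was 256 bp. With 100 bp either side of the summit the counts were 4 for CCAAT, 2 for E2F, 6 for CACGTG and 3 for TATAAA, in windows of about double length. The snoRNA genes within 500 bp of a summit were 9, against 18 under a peak. SNHG28 and SNHG30 fell below a fold enrichment of 5. Alternatives with the canonical TSS, without coding partners, and for the span and TOP tract were added once the data had been seen. No paired analysis was possible because ChIP and input are 1 library each. Small differences between hosts are below the counting error of their pileups.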

Other observations

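A further 8 lncRNA genes, left out by the symbol rule, have a snoRNA inside their span in the RefSeq table. The rule used current symbols only, and earlier names were not searched. A promoter peak was found at 6 of the 8, with a median fold enrichment of 9.81. DANCR, which spans SNORA26, had 12.1, STX18-AS1 had 10.5, THAP9-AS1 had 10.1, STARD7-AS1 had 9.51, LINC03006 had 7.86 and PABPC4-AS1 had 3.49. MEG8, the imprinted transcript over the SNORD113 and SNORD114 arrays, and MIR99AHG had none. None of the 6 peaks was 3000 bp or longer, and their median width was 949.5 bp. These genes were looked up after the values of the hosts chosen by symbol were known, and the strand of their snoRNAs was not checked. The difference from the hosts chosen by symbol was not tested.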
